A study of Mus musculus with 16 samples.

Results

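The SR and hnRNP splicing factor genes were taken as every transcript of the table whose gene name starts with Srsf or Hnrnp. They were 188 transcripts of 30 gene names, among 80137 transcripts of 18287 gene names in all. Of these, 64 transcripts belonged to 11 Srsf genes and 124 to 19 Hnrnp genes, on 15 chromosomes. The values came from RNA-seq of the hippocampus of 16 wild type C57BL/6 male mice of 3 months, with 4 mice in each of 4 groups and 1 library per mouse. Homecage (HC) mice had neither shocks nor escape trials. Control (Ctrl) mice had 0 inescapable shocks and 30 escape trials with foot shocks of 0.4 mA. Mice of the NLH (non-learned helpless) and LH (learned helpless) groups had 180 inescapable shocks of 0.4 mA and the same 30 escape trials a day later. LH and NLH were told apart only after the test session, from escape failures and latency, so the label is an outcome and not an assigned treatment. Each library held both hippocampi of a mouse, a tissue of many cell types, so fewer cells of a type and less RNA per cell cannot be told apart.

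SR proteins and hnRNPs bind pre-mRNA while it is made and decide together which exons are joined. SR proteins, with a domain rich in arginine and serine, mostly recruit the spliceosome to nearby exons, whereas many hnRNPs oppose this or act on RNA stability, transport and translation. The genes of both families are known for control of their own RNA: an exon with an early stop codon (a poison exon) or an unspliced intron turns a transcript into a target of nonsense-mediated decay (NMD) or holds it in the nucleus. In the hippocampus, these factors are known from activity-dependent and neuron-type splicing of synaptic genes.

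Such exons were read from the GENCODE vM21 transcripts (GRCm38, the build called mm10) for the 25 member transcripts annotated as NMD targets. In 9 of them, of 6 genes, the exon with the stop codon was absent from the coding transcripts of the same gene. They are shown as the sequence behind the NMD class, whose share of each gene is described further on together with that of retained introns. Each sequence runs from the 5′ end of the exon to the stop codon, which is in capitals.
Srsf3, ENSMUST00000037776.14, exon 4 of 7, chr17:29039454-29039487, + strand: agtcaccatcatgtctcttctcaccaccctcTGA
Srsf4, ENSMUST00000129966.7, exon 2 of 6, chr4:131884276-131884390, + strand: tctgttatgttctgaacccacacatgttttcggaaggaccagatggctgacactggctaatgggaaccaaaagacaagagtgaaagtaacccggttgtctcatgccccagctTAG
Srsf9, ENSMUST00000209604.1, exon 2 of 6, chr5:115328347-115328428, + strand: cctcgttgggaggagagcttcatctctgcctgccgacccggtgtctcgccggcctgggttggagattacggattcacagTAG
Srsf11, ENSMUST00000126716.8, exon 4 of 9, chr3:158024209-158024231, - strand: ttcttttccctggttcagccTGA
Hnrnpl, ENSMUST00000174882.7, exon 6 of 13, chr7:28817335-28817393, + strand: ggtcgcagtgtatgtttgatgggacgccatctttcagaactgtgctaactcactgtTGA
Hnrnpll, ENSMUST00000184297.7, exon 7 of 14, chr17:80044976-80045022, - strand: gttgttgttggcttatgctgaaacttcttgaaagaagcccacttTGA

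The full exons are longer than the stretch shown, with 456 bases in Srsf3, 358 in Srsf9, 207 in Srsf4, 109 in Srsf11, 83 in Hnrnpll and 70 in Hnrnpl. The most abundant NMD transcript of both families, ENSMUST00000161769.7 of Hnrnpu, ended differently. Its stop codon lies in exon 14 of 17, an exon of 71 bases that overlaps an exon of a coding transcript of Hnrnpu.
Hnrnpu, ENSMUST00000161769.7, chr1:178325281-178325313, - strand: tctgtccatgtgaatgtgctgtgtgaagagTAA

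Libraries were compared before the groups were. FPKM counts sequenced fragments relative to transcript length and library depth, and its sum over transcripts ranged from 120208 to 158004 per mouse, and the members held between 0.443 and 0.512% of it. LH replicates 3 and 4 stood apart: 10846 and 15504 of all transcripts were at 0 in them, against 4872 to 7352 in the other 14 mice. Of the member transcripts, 15 and 17 were at 0 in these libraries, against 1 to 9 in the others. Depth is not given with FPKM. From the steps between low values it was roughly 20200000 (LH replicate 4) to 38180000 fragments, at which 53.7 to 57.1% of low values came out within 0.1 of a whole fragment. The 5 neuron markers were all present, at a summed 689 to 745 FPKM in HC, 734 to 816 in Ctrl, 729 to 820 in NLH and 641 to 862 in LH. Markers of hippocampal subfields were found for 6 of 7 genes, whereas the striatal receptor genes Drd1, Drd2 and Adora2a were at means of 0.998, 0.293 and 0.104 FPKM. Choroid plexus genes varied most, with 4 of 4 in the table, from 2.09 to 32.0 in HC, 12.4 to 42.2 in Ctrl, 2.68 to 53.9 in NLH and 1.45 to 72.9 in LH. Their part in the results below was not tested, and the main LH differences are also given without replicates 3 and 4. Locus sums and values from NMD transcripts alone use all mice.

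The families spanned 3 orders of magnitude in level. FPKM is scaled by transcript length, so genes can be ranked by it. Over all mice, the mean of Hnrnpk, a poly(C)-binding protein of transcription, splicing and translation, was 121 FPKM (99.1 to 142.5 in single mice), the highest of the 30. Hnrnpa2b1, which binds RNA carried into dendrites, followed with 96.5 (83.4 to 117.0). These ranges overlapped, although the mean of Hnrnpk was higher in each of the groups.

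Next came genes between 27 and 39 FPKM. Hnrnpu, a nuclear scaffold protein, had 38.4 FPKM, Srsf1, the prototype SR protein, 37.9, Hnrnpl 37.2, Srsf5 34.6, Hnrnph1 29.9, Hnrnpa1 27.7 and Hnrnpdl 27.4. Neighbours in this order did not differ beyond their spread over mice, which was for Srsf1 28.3 to 45.8 and for Hnrnpl 24.5 to 47.4. Of the 11 SR genes only Srsf1 and Srsf5 were in this range. A broad middle held Hnrnpa3 at 19.4, Hnrnpab at 15.1, Srsf2 at 15.0, Srsf6 at 14.6, Hnrnpd at 14.5, Hnrnpf at 13.0, Srsf11 at 12.1 and Srsf3 at 11.9 FPKM. Below them stood Hnrnpr at 9.17, Hnrnpul1 at 9.05, Srsf10 at 8.86, Hnrnph3 at 6.93, Hnrnpll at 6.86, Srsf4 at 6.43, Srsf7 at 6.35 and Hnrnpm at 5.44 FPKM. The lowest were Srsf9 at 3.64, Srsf12 at 2.43, Hnrnpul2 at 1.88, Hnrnpc at 0.28 and the pseudogene Hnrnpa1l2-ps at 0.10 FPKM.

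Some of these levels cover only part of a locus. The assembly also held 108 transcripts without a gene name at the member loci, which the name rule leaves out. Of the 30 genes, 18 had at least 80% of the FPKM of their locus in named transcripts, and 3 had under 50%. These were Srsf9 with 38.7%, Hnrnpul2 with 9.97% and Hnrnpc with 1.02%. The locus mean of Hnrnpc was 27.7 FPKM and that of Hnrnpul2 18.8, so their low place in the order holds for named transcripts only.

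**Figure D1:**
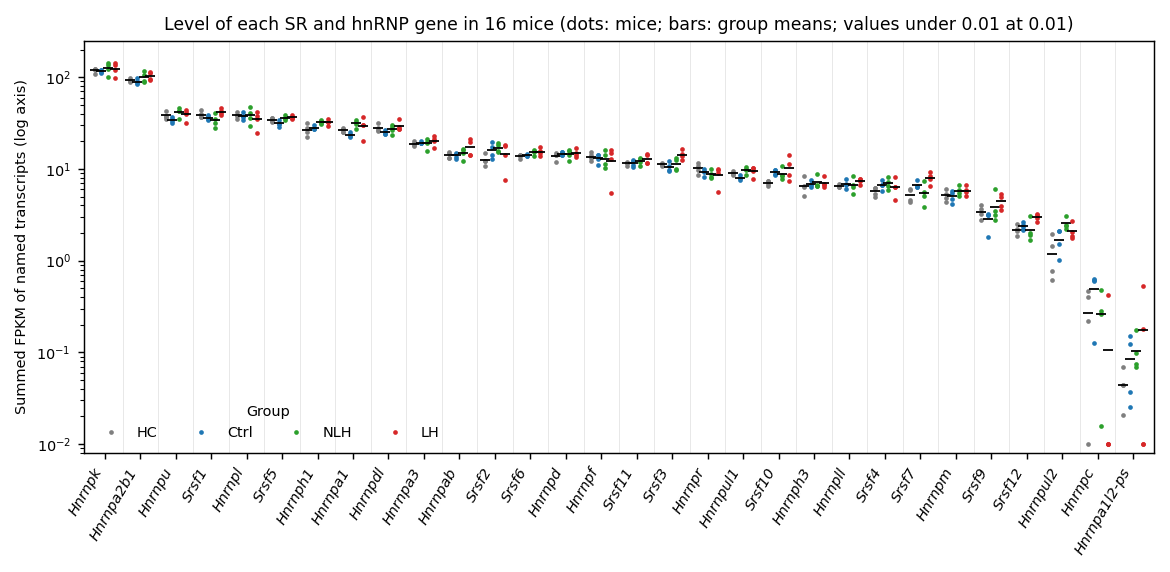
Summed FPKM of the named transcripts of each gene on a log axis, genes ordered by their mean over 16 mice. Each dot is a mouse, colors mark the 4 groups and bars are group means of 4 mice. For most genes the 4 groups lie on top of each other, from Hnrnpk at 121 FPKM to Hnrnpul2 at 1.88 FPKM, and only the 2 lowest genes spread over more than a 10-fold range.

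The make-up of both families by transcript class differed from that of all named genes, which is given as a description. Among SR genes, transcripts annotated with a retained intron held 36.6% of the FPKM (mean of 16 mice, 33.5 to 43.0%) and NMD transcripts 4.51% (2.72 to 7.30%). Among hnRNP genes these shares were 24.7% (20.1 to 26.8%) and 5.71% (3.98 to 7.83%). Over all named genes they were 7.95% (6.55 to 9.29%) and 2.17% (2.09 to 2.29%). For both classes, each family's range over mice thus lay above that of all named genes, whereas the SR and hnRNP ranges overlapped for NMD. These ranges are a spread over libraries and not over genes. Among hnRNP NMD transcripts, that of Hnrnpu had a mean of 17.7 FPKM and the next, of Hnrnpa2b1, 4.27. The hnRNP NMD share thus rests largely on Hnrnpu, and the share without it was not computed. Coding transcripts held 46.8% in SR genes, 63.2% in hnRNP genes and 81.2% in all named genes. Short annotated transcripts weigh heavily in such shares, since FPKM divides by length. In Hnrnpk, for instance, a retained-intron transcript of 522 bases alone held 29.3% of the FPKM.

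The share of NMD and retained-intron transcripts together is called unproductive here, as a name for 2 annotation classes and not as a measure of decay. It could be computed for 19 member genes, with a median of 39.2%, against 18.01% (quartiles 7.10 and 36.4%) over 5402 genes with both kinds of transcript. Of the members, 6 (31.6%) were over 50%, and of all these genes 770 (14.3%). These shares are of named transcripts only. Unnamed transcripts carry no class, and with them in the denominator only Srsf1 (56.6% of its locus) was over 50%, whereas Hnrnpll had 49.3%, Srsf11 45.9%, Hnrnpu 44.7%, Hnrnph3 43.9% and Srsf9 21.2% of the locus. Of named transcripts, the highest share was that of Hnrnpll, a regulator of alternative splicing known from lymphocytes, with 89.0%. The poison-exon transcript shown above held 13.7% of the whole gene. Hnrnph3 (73.8%), Srsf11 (71.7%), Srsf1 (57.5%), Srsf9 (56.3%) and Hnrnpu (53.7%) followed. They reached this in different ways. In Srsf1, Srsf11, Hnrnph3 and Hnrnpll most of it was retained intron, whereas in Srsf9 all of it was of the NMD class, and in Hnrnpu most, with 46.5% of the whole gene in that class and 7.22% in retained introns. At the other end, Hnrnpa3 had 1.55%.

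Of the 25 NMD transcripts, 6 had a mean of at least 1 FPKM. The poison-exon transcript of Srsf3, a small SR protein that also exports mRNA, was at 1.16 FPKM, or 10.1% of its gene (2.05 to 18.6% in single mice). That of Srsf9 was at 1.99 FPKM and 56.3% (42.8 to 71.8%), and that of Hnrnpll at 0.933 FPKM and 13.7% (8.73 to 19.6%). In Hnrnpl the poison-exon transcript made up only 2.62%, and in Srsf11 the one shown 1.77%.

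**Figure D2:**
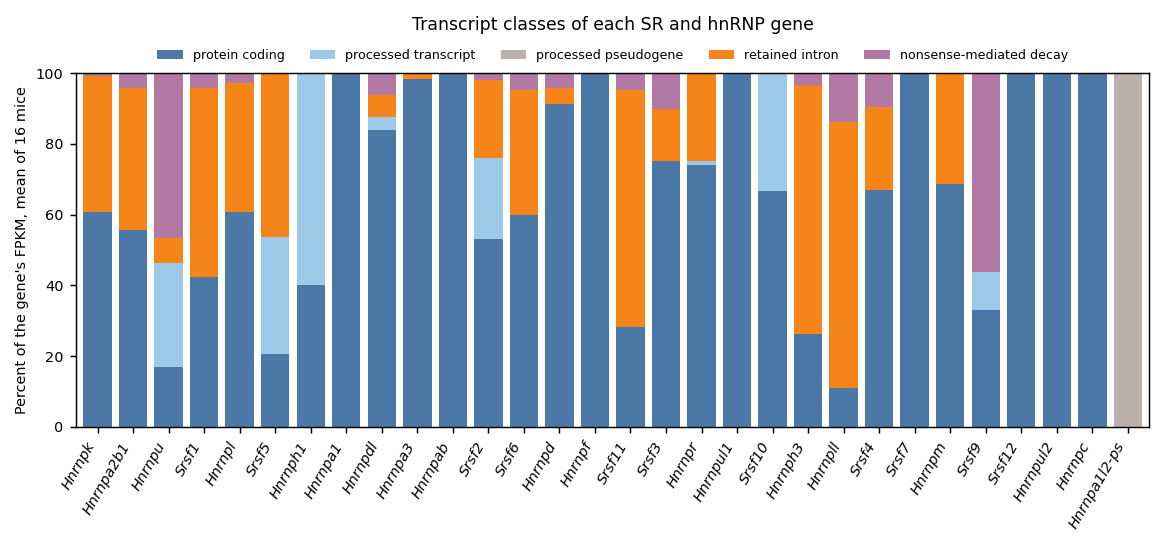
Percent of each gene's FPKM in each annotated transcript class, mean of 16 mice, genes ordered by level. Retained-intron transcripts take the largest share in Srsf1, Srsf11, Hnrnph3 and Hnrnpll, and NMD transcripts take the largest share in Hnrnpu and Srsf9.

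At the level of whole genes, no member passed the test in any of the 4 comparisons. The test was limma on log2(FPKM + 0.1) of all 16 mice at a Benjamini-Hochberg adjusted p under 0.05 over 18287 genes, and the log2 differences below are on this scale. It called 0% of all genes in Ctrl vs. HC, 0.00547% in NLH vs. Ctrl, 0% in LH vs. Ctrl and, for LH vs. NLH, 0.0109%, so few genes of any kind passed. At an unadjusted p under 0.05, 1 of 30 members passed in Ctrl vs. HC, where 2.7% of all genes did. In NLH vs. Ctrl it was 4 (13.3%, all genes 5.59%), in LH vs. Ctrl 6 (20%, all genes 11.5%) and in LH vs. NLH 4 (13.3%, all genes 7.54%). Among genes with a mean of at least 1 FPKM, 2, 4, 5 and 4 of 28 members did, against 2.35%, 7.18%, 13.8% and 6.89% of 10436 genes.

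These comparisons share groups and are not independent of each other. The median member difference was 0.00 in Ctrl vs. HC, where that of all genes was 0.02. It was 0.09 in NLH vs. Ctrl (all genes 0.06), 0.19 in LH vs. Ctrl (all genes 0.00) and 0.03 in LH vs. NLH (all genes -0.06). In LH vs. Ctrl, 24 of 30 members had a higher mean on the log scale in LH, where 48.4% of all genes did. Among genes with a mean of at least 1 FPKM, 23 of 28 members did, against 54.0% of these genes, whose median was 0.03. Of all 30 members, a higher LH mean held for 9 of 11 SR genes, with a median of 0.21, and for 15 of 19 hnRNP genes, with a median of 0.19. With LH replicates 3 and 4 left out it held for 11 of 11 SR genes (median 0.28) and 16 of 19 hnRNP genes (median 0.19), where 73.1% of all genes were higher in LH. Summed over the family, SR transcripts were at 142, 154, 139 and 156 FPKM in Ctrl and at 182, 174, 166 and 151 in LH. The LH sums were above all Ctrl sums except in LH replicate 4, which lay below Ctrl replicates 2 and 4. The hnRNP sums were 448, 464, 447 and 453 FPKM in Ctrl and 549.5, 536, 492 and 415 in LH, where replicate 4 was below every Ctrl mouse. In NLH they were 508, 534, 524 and 429, and the means of NLH and LH were close (499 ± 47.7 and 498 ± 60.6, SD, n = 4).

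**Figure D3:**
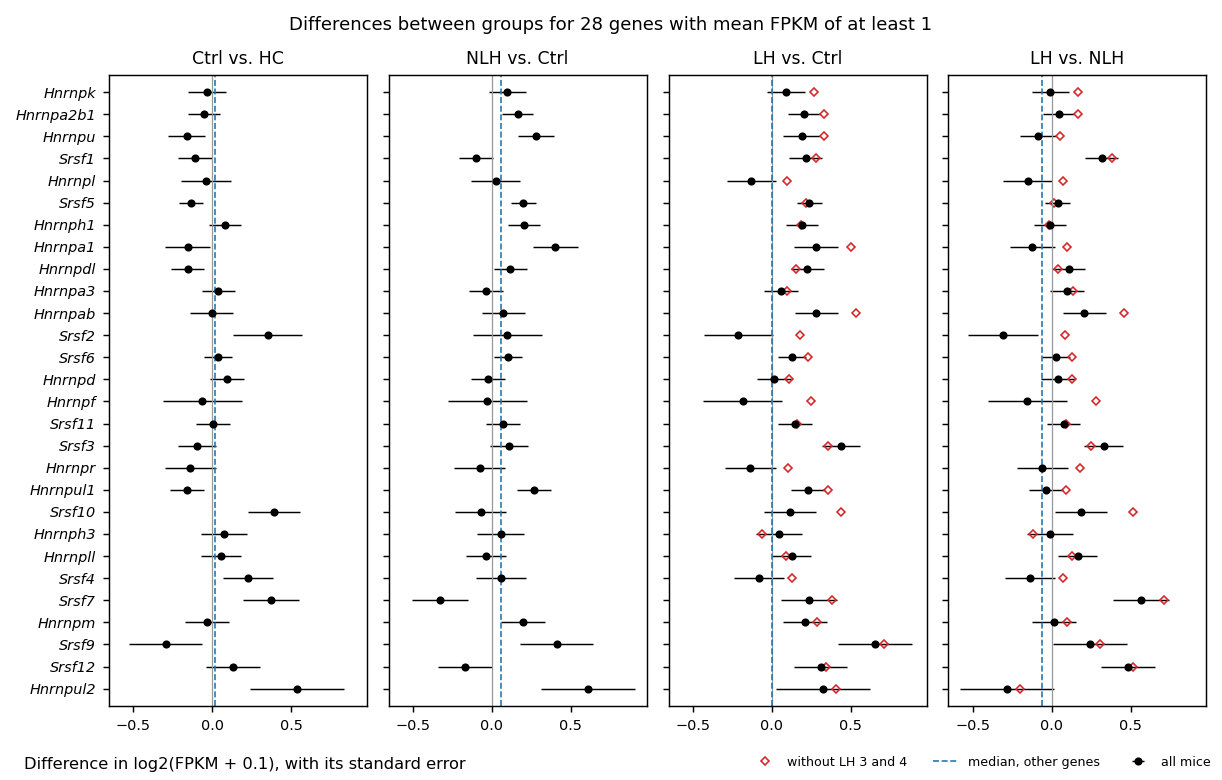
Log2 difference and standard error for 28 genes in the 4 comparisons, genes ordered by level. Black points use all 16 mice, red diamonds leave out LH replicates 3 and 4, and the dashed line is the median of the other genes with all mice. In LH vs. Ctrl most members lie above the dashed line, and without the 2 mice the differences of Hnrnpa1 and Hnrnpab are 0.50 and 0.53.

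Ctrl vs. HC asks what handling and the escape test do without inescapable shock. The smallest p belonged to Srsf10 (chr4:135855747-135869908, + strand), an SR-like protein that represses splicing when it loses phosphate. Its summed FPKM was 7.36, 6.77, 7.36 and 6.58 in HC and 8.49, 9.84, 8.85 and 9.81 in Ctrl, so that all Ctrl mice were above all HC mice. The log2 difference was 0.39 (SE 0.16, limma adjusted p = 1.00, exact permutation p = 0.0286, the smallest that 4 against 4 mice allow). Srsf7, the SR protein with a zinc knuckle, was at 6.09, 4.32, 4.57 and 5.88 in HC and 6.34, 6.50, 6.42 and 7.66 in Ctrl. Again the groups did not overlap, and the difference was 0.37 (SE 0.18, limma adjusted p = 1.00). Named transcripts held 53.4% of the Srsf7 locus, and the locus sums differed by 0.20 and overlapped, with HC at 9.63 to 12.02 and Ctrl at 11.83 to 13.25 FPKM. Hnrnpul2 was at 0.777, 1.44, 0.611 and 1.95 FPKM in HC and at 2.09, 2.09, 1.03 and 1.51 in Ctrl, which overlap, and its locus sums differed by 0.01. Srsf10 and Srsf7 were the 2 of 30 members (6.67%) without overlap, both higher in Ctrl, where 3.32% of all genes were higher in Ctrl without overlap and 1.91% lower.

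NLH vs. Ctrl asks what differs in mice that kept escaping after inescapable shock. Hnrnpa1 (chr15:103240432-103246692, + strand), an abundant repressor of exon inclusion, had the smallest p. It was at 22.1, 25.6, 22.9 and 24.2 FPKM in Ctrl and at 30.7, 32.8, 34.3 and 27.6 in NLH, with every NLH mouse above every Ctrl mouse. The difference was 0.40 (SE 0.14, limma adjusted p = 0.705). HC mice, at 27.2, 27.8, 25.2 and 25.2, reached into the ranges of both. Copies of Hnrnpa1 without introns lie elsewhere in the genome, so its reads may be shared. Srsf5, an SR protein whose RNA is known to respond quickly to signals, was at 31.2, 34.4, 28.8 and 30.9 in Ctrl and at 35.9, 35.6, 38.4 and 33.8 in NLH. Only Ctrl replicate 2 reached into the NLH range, and the difference was 0.20 (SE 0.08, limma adjusted p = 0.756). Hnrnpul1 was at 7.94, 8.61, 7.94 and 7.62 in Ctrl and at 9.75, 10.4, 10.1 and 8.52 in NLH, with a difference of 0.27 (SE 0.11, limma adjusted p = 0.763). NLH replicate 4 was the lowest NLH mouse for each of these genes. Of the members, 3 of 30 (10%) were higher in NLH without overlap and 0 lower, where 4.76% of all genes were higher and 1.28% lower.

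LH vs. Ctrl asks what differs in mice that became helpless. The 3 smallest p values all belonged to SR genes. Srsf3 (chr17:29032628-29043373, + strand) was at 9.41, 10.9, 9.62 and 12.2 FPKM in Ctrl and at 14.4, 12.5, 16.4 and 13.8 in LH. The 4 LH mice were above the 4 Ctrl mice, by 0.44 on the log2 scale (SE 0.12, limma adjusted p = 0.175). LH replicate 2 was nearest to Ctrl and replicate 3 the highest. Without replicates 3 and 4 the difference was 0.36 (limma adjusted p = 0.122). Srsf5, with the Ctrl values above, was at 37.3, 35.5, 38.5 and 36.4 in LH, again without overlap, with a difference of 0.24 (SE 0.08, limma adjusted p = 0.254), and of 0.22 without replicates 3 and 4. Srsf9 was at 3.18, 3.13, 3.19 and 1.80 in Ctrl and at 3.93, 5.33, 4.90 and 3.61 in LH. Its difference of 0.65 (SE 0.23, limma adjusted p = 0.293), or 0.71 without replicates 3 and 4, came down to 0.18 with all mice when the unnamed transcripts of its locus were added. For Srsf3 and Srsf5 the locus sums gave 0.33 and 0.29. In all, 6 of 30 members (20%) were higher in LH without overlap and 0 lower, where 4.05% of all genes were higher and 1.54% lower.

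The LH vs. Ctrl result changed with the weight given to LH replicates 3 and 4. Without them, 3 members rose in LH at an adjusted p under 0.05, where 5.41% of all genes passed, and 12 of 30 passed at an unadjusted p under 0.05, all higher, where 24.3% of all genes did. The 3 were Hnrnpa1 (0.50, SE 0.10, adjusted p = 0.0237 from limma), Hnrnpab (0.53, SE 0.12, adjusted p = 0.0288) and Hnrnpul1 (0.36, SE 0.09, adjusted p = 0.0438), named after these values were seen. The median of the other genes was then 0.19 and that of the members 0.24. Relative to other genes the members were thus 0.04 higher, against 0.19 with all mice. Hnrnpab, known for mRNAs carried into dendrites, was at 19.6 and 21.0 FPKM in LH replicates 1 and 2 and at 14.3 and 14.2 in replicates 3 and 4. Ctrl mice lay between 12.7 and 15.0. Hnrnpa1 was at 36.8, 30.4 and 30.3 in LH replicates 1 to 3 and at 19.99 in replicate 4, below all Ctrl mice. The same 3 genes passed with all mice after division by median-ratio size factors (differences of 0.36, 0.36 and 0.31, where 2.8% of all genes passed). They also passed with sample quality weights (0.49, 0.43 and 0.33, where 5.29% passed). The size factors were 1.25, 1.27, 1.01 and 0.847 in LH replicates 1 to 4. Factors and weights were estimated from these same libraries, so the 3 settings are not independent of each other.

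LH vs. NLH asks what separates mice that had the same 180 inescapable shocks. An escape ended the foot shock of a trial, so the shock received in the test session could differ between the groups, which cannot be told apart from the label. Srsf7 was at 7.37, 5.13, 3.80 and 5.56 FPKM in NLH and at 9.29, 8.29, 6.57 and 7.75 in LH. Only NLH replicate 1 reached into the LH range, and the difference was 0.56 (SE 0.18, limma adjusted p = 0.466). Srsf1 was at 40.7, 35.4, 28.3 and 31.7 in NLH and at 42.4, 45.8, 41.1 and 39.1 in LH. Here too only NLH replicate 1 overlapped LH, with a difference of 0.32 (SE 0.11, limma adjusted p = 0.507). Srsf12, a weakly expressed SR protein, was at 3.09, 2.01, 1.88 and 1.66 in NLH and at 2.92, 3.19, 2.66 and 3.17 in LH, with a difference of 0.48 (SE 0.17, limma adjusted p = 0.550). Of the 11 SR genes 9 had a higher log mean in LH (median 0.19), and of the 19 hnRNP genes 8 (median -0.01), where 38.9% of all genes were higher. All 30 members overlapped between LH and NLH, where 0.842% of all genes were higher and 1.26% lower without overlap. Without LH replicates 3 and 4 the differences of Srsf7, Srsf1 and Srsf12 were 0.71, 0.38 and 0.52. No member then passed at an adjusted p under 0.05, where 0.0383% of all genes did, and 5 of 30 did so at an unadjusted one, where 15.3% did. The median was then 0.11 for members and 0.13 for other genes. It was 0.25 for SR genes, all 11 of them higher, and 0.09 for hnRNP genes, 14 of 19 higher, where 69.2% of all genes were higher.

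Single transcripts were fitted in the same way over all 80137. Of the 188 members, 0 passed in Ctrl vs. HC (all transcripts 0.00374%), 1 in NLH vs. Ctrl (0.0125%), 0 in LH vs. Ctrl (0.0462%) and, for LH vs. NLH, 1 (0.0412%). Without adjustment there were 13 (6.91%), 22 (11.7%), 22 (11.7%) and 25 (13.3%) in this order, beside 3.45%, 5.12%, 10.7% and 8.72% of all transcripts. In the first comparison 9 of 13 were higher, in the second 11 of 22, in the third 11 of 22 and in the fourth 12 of 25.

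The transcript that passed was ENSMUST00000177117.1 of Hnrnpk in both cases, a coding-class fragment of 476 bases at chr13:58395270-58398017 on the - strand. It was at 0.978, 0.731, 0.558 and 0.543 FPKM in NLH and under 0.1 in all Ctrl and LH mice. In HC it was at 0.249 and 0.278 in replicates 1 and 3 and under 0.1 in the others. It thus rose in NLH against Ctrl (limma adjusted p = 0.0419) and was lower in LH than in NLH (limma adjusted p = 0.0236). Its share of Hnrnpk, at most 0.786%, passed too (limma adjusted p = 0.0497 and 0.0198). Its level was low, at roughly 5.07 to 7.32 fragments per NLH library, and it is named after its values were seen. For the transcript, the NLH vs. Ctrl call was lost without any 1 of 9 mice. These were each Ctrl mouse, NLH replicates 2 and 3 and LH replicates 1, 2 and 3. Its LH vs. NLH call was lost without NLH replicate 2 or LH replicate 3 or 4. Without LH replicates 3 and 4 together its limma adjusted p was 0.0849 in LH vs. NLH. For the share, the NLH vs. Ctrl call was lost without LH replicate 3 alone and without LH replicate 4 alone. Whole Hnrnpk did not follow: its sum was 116 ± 4.24 FPKM (SD, n = 4) in Ctrl, 125 ± 18.2 in NLH and 124 ± 19.4 in LH.

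The NMD transcript of Hnrnpu (2844 bases, chr1:178323074-178337728, - strand) whose stop codon is shown above was at 13.1, 13.8, 13.3 and 14.3 FPKM in Ctrl and at 19.7, 25.8, 28.1 and 18.8 in NLH. All NLH mice were above all Ctrl and all HC mice, the latter at 15.996, 15.2, 13.6 and 15.3. The difference NLH vs. Ctrl was 0.74 (SE 0.14, limma adjusted p = 0.158). In LH it was at 23.9, 16.1, 17.3 and 18.1, also above Ctrl, by 0.45 (SE 0.14, limma adjusted p = 0.266), and by 0.52 without replicates 3 and 4. As a share of Hnrnpu it was 41.8, 39.9, 39.5 and 38.3% in Ctrl and 46.2, 60.2, 60.7 and 53.9% in NLH (limma adjusted p = 0.722). HC mice were at 45.7, 35.2, 36.0 and 41.0%, all below NLH. The LH shares were 54.3, 38.4, 44.2 and 56.7%, so that LH replicate 2 lay within the Ctrl range. The full-length coding transcript ENSMUST00000037748.8 held 23.2, 20.5, 22.1 and 18.9% in Ctrl and 17.1, 13.1, 9.46 and 14.8% in NLH. Ctrl and NLH did not overlap for either share, but HC mice, at 15.6, 11.1, 15.0 and 14.0%, lay within the NLH range of the coding one.

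The main coding transcript of Hnrnpa2b1, ENSMUST00000203220.2, came closest to the threshold in LH vs. Ctrl. It was at 33.4, 34.9, 34.4 and 35.5 FPKM in Ctrl, at 50.3, 45.5, 50.8 and 37.3 in NLH and at 57.2, 46.3, 47.8 and 63.1 in LH. HC mice, at 36.7, 36.9, 33.4 and 34.9, were close to Ctrl, and every NLH and LH mouse was above every Ctrl and HC mouse. The difference was 0.62 in LH vs. Ctrl (SE 0.11, limma adjusted p = 0.0629) and 0.40 in NLH vs. Ctrl (SE 0.11, limma adjusted p = 0.474). Without LH replicates 3 and 4 the first was 0.57 (limma adjusted p = 0.0538). In contrast, a retained-intron transcript of the same gene, ENSMUST00000203655.1, had shares of 18.5, 16.2, 10.7 and 20.9% in Ctrl and of 3.63, 22.0, 2.95 and 0.29% in LH. LH replicate 2 was the highest of these 8 mice and the other LH mice were the lowest. The difference was -2.51 in log2 odds (SE 0.90, limma adjusted p = 0.333) and -0.90 without LH replicates 3 and 4. Another one, ENSMUST00000204902.1, was at 2.53, 1.04, 0.64 and 1.03 FPKM in NLH and at 3.99, 3.67, 2.19 and 2.44 in LH. Only NLH replicate 1 reached the LH range, and the difference LH vs. NLH was 1.29 (SE 0.31, limma adjusted p = 0.236), and 1.64 without LH replicates 3 and 4.

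Srsf1 transcripts separated LH from NLH in 3 of 4 NLH mice. The coding transcript ENSMUST00000139129.8 was at 11.7, 6.21, 5.86 and 5.85 FPKM in NLH and at 12.3, 10.9, 11.5 and 10.8 in LH, with a difference of 0.68 (SE 0.18, limma adjusted p = 0.290). The retained-intron transcript ENSMUST00000132983.2 was at 20.2, 16.3, 9.75 and 14.7 in NLH and at 19.99, 26.9, 21.8 and 22.3 in LH (0.61, SE 0.18, limma adjusted p = 0.356). NLH replicate 1 lay within the LH range for both. Without LH replicates 3 and 4 the differences were 0.71 and 0.65. The NMD transcript ENSMUST00000134824.8 had a higher mean share of the gene in NLH, with overlap, at 3.69, 8.33, 11.8 and 8.78% in NLH and 5.57, 1.01, 3.03 and under 0.1% in LH. The difference was -2.41 in log2 odds (SE 0.76, limma adjusted p = 0.343) and -1.62 without LH replicates 3 and 4.

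Other named transcripts were ENSMUST00000069304.13 of Hnrnph1, a G-run binding hnRNP, and ENSMUST00000094693.10 of Srsf5. The first was at 7.79, 6.71, 8.56 and 7.08 FPKM in Ctrl and at 15.7, 10.5, 13.4 and 9.13 in NLH, without overlap (0.66, SE 0.21, limma adjusted p = 0.652). The second was at 4.16, 6.29, 4.42 and 3.26 in Ctrl and at 6.27, 6.25, 6.69 and 6.65 in LH (0.54, SE 0.17, limma adjusted p = 0.276, and 0.50 without LH replicates 3 and 4). For it Ctrl replicate 2 lay within the LH range.

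The smallest p between Ctrl and HC were those of transcripts of Srsf10, Hnrnpdl and Srsf2, a nuclear SR protein, none of them past the threshold (limma adjusted p = 1.00 each). ENSMUST00000102544.8 of Srsf10 was at 0.265, under 0.1, 0.211 and 0.913 FPKM in HC and at 1.65, 1.98, 2.27 and 1.95 in Ctrl. ENSMUST00000128187.7 of Hnrnpdl was lower in Ctrl, at 6.31, 6.48, 6.06 and 4.41 against 11.8, 9.06, 8.46 and 10.2 in HC. ENSMUST00000177429.1 of Srsf2, a processed transcript of 433 bases, was at 2.77, under 0.1, 0.862 and under 0.1 in HC and at 4.37, 7.33, 4.67 and 6.08 in Ctrl. Groups did not overlap for any of these transcripts. The coding Srsf2 transcript ENSMUST00000092404.12 then held 53.1, 58.4, 63.9 and 59.5% of the gene in HC, 48.2, 39.1, 33.2 and 45.0% in Ctrl and 48.4, 46.6, 41.8 and 31.4% in NLH. LH mice, at 60.3, 49.9, 59.4 and 77.1%, were all above Ctrl and NLH (LH vs. Ctrl limma adjusted p = 0.245, LH vs. NLH 0.336). Without LH replicates 3 and 4 the log2 differences of this share fell from 1.21 to 0.80 and from 1.17 to 0.76.

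**Figure D4:**
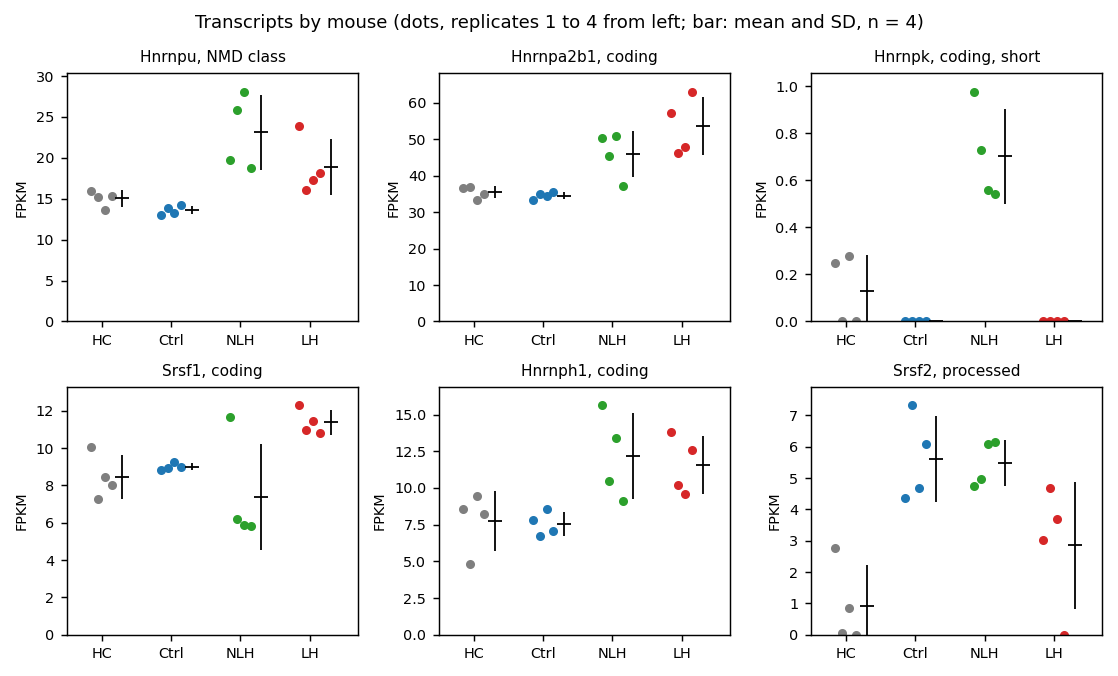
FPKM of 6 transcripts in each mouse, with the mean and SD of 4 mice per group. All 8 NLH and LH mice are above all Ctrl mice for the Hnrnpu and Hnrnpa2b1 transcripts, and the Hnrnpk fragment is at 0.543 to 0.978 FPKM in NLH and under 0.1 in all Ctrl and LH mice.

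Isoform shares, each transcript against the rest of its gene, could be fitted for 183 members among 45017 transcripts. The members that passed were 0 in Ctrl vs. HC (all 0.00444%), 1 in NLH vs. Ctrl (0.0222%), 0 in LH vs. Ctrl (0.0444%) and, for LH vs. NLH, 1 (0.0644%), each time the Hnrnpk fragment. At an unadjusted p under 0.05 they were 10 (5.46%), 19 (10.4%), 18 (9.84%) and 15 (8.20%), beside 3.39%, 5.15%, 11.3% and 9.73% of all.

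A transcript that passed only without LH replicates 3 and 4 was ENSMUST00000038572.14, a coding transcript of Hnrnpl, named after its values were seen. It was at 0.734 and 1.06 FPKM in LH replicates 1 and 2 and under 0.1 in the other 14 mice, LH replicates 3 and 4 included. It was then the only member transcript past an adjusted p of 0.05 against Ctrl (all transcripts 0.413%) and against NLH (0.0948%), with 35 and 23 members at an unadjusted p under 0.05 (all 14.3% and 11.1%).

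Unproductive shares, the summed NMD and retained-intron transcripts against the rest of a gene, were fitted for 5407 genes, 19 of them members. No member passed in any comparison, where 0%, 0.0185%, 0.0925% and 0.0925% of the genes did in Ctrl vs. HC, NLH vs. Ctrl, LH vs. Ctrl and LH vs. NLH. Members with an unadjusted p under 0.05 were 1, 1, 1 and 2, beside 3.31%, 4.51%, 14.3% and 11.1%. The median difference of members, in log2 odds, was 0.03 in NLH vs. Ctrl, where that of all genes was -0.13. It was 0.02 in LH vs. Ctrl (all genes -0.23) and -0.29 in LH vs. NLH (all genes -0.12). With LH replicates 3 and 4 left out these medians were -0.23 (other genes -0.37) and -0.30 (other genes -0.25).

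The smallest p in NLH vs. Ctrl was that of Hnrnpu, at 51.2, 47.6, 47.4 and 44.1% in Ctrl and 55.5, 66.5, 66.9 and 61.3% in NLH. The groups did not overlap, and the log2 odds differed by 0.88 (SE 0.32, limma adjusted p = 1.00). Srsf11, known for the choice of neuronal microexons, was at 65.7 to 70.9% in Ctrl and 73.0 to 80.4% in NLH, also without overlap (0.62, SE 0.35), but with NMD transcripts alone the difference turned to -0.49. Hnrnpll was at 86.8, 86.5, 83.3 and 78.9% in Ctrl and at 83.6, 99.2, 96.7 and 94.6% in NLH, a difference of 1.64 (SE 0.79), or 0.12 with NMD transcripts alone. In LH vs. Ctrl, Hnrnpr, an RNA-binding protein of axons, was at 35.5, 31.5, 27.5 and 21.8% in Ctrl and at 16.4, 13.4, 27.2 and 15.1% in LH. LH replicate 3 alone lay among the Ctrl mice, and the difference was -0.88 (SE 0.34, limma adjusted p = 0.260), and -1.17 without replicates 3 and 4. The NMD transcript of Hnrnpr was under 0.1 FPKM in all Ctrl and LH mice, so that this share was that of a retained intron. Srsf9 had 61.0 ± 6.88% (SD, n = 4) in Ctrl and 48.9 ± 4.81% in LH, all of it the poison-exon transcript shown above (-0.67, SE 0.32, limma adjusted p = 0.371, and -0.61 without LH replicates 3 and 4). Hnrnpd, which binds AU-rich RNA and promotes its decay, had 12.2 ± 3.16% in Ctrl and 6.05 ± 6.49% in LH (-1.68, SE 0.90, limma adjusted p = 0.424, and -1.42 without these mice).

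In LH vs. NLH, Hnrnph3 was at 72.1, 57.7, 66.8 and 66.3% in NLH and at 69.3, 74.5, 83.8 and 86.9% in LH (0.96, SE 0.35, limma adjusted p = 0.375). LH replicates 3 and 4 were the highest, and without them the difference was 0.39. With NMD transcripts alone it was 0.05. Hnrnpdl was at 13.9, 18.3, 12.9 and 17.4% in NLH and at 12.9, 13.4, 6.52 and 10.0% in LH, with replicates 3 and 4 the lowest. Its difference was -0.65 (SE 0.29, limma adjusted p = 0.422) with all mice and -0.27 without these 2, but -1.60 with NMD transcripts alone. Srsf2 had 23.7 ± 3.14% in NLH and 17.5 ± 5.34% in LH, a difference of -0.56 (SE 0.33) with all mice and of -0.12 without LH replicates 3 and 4. Its NMD transcript was at 0.210 to 0.613 FPKM in NLH and under 0.1 in all LH mice. Srsf2 had an unproductive share of 32.5 ± 8.12% in HC against 21.8 ± 5.204% in Ctrl. For Ctrl vs. HC the others with the smallest p were Hnrnph3, with 71.6 ± 3.65% in Ctrl and 79.2 ± 4.51% in HC, and Hnrnpm, with 29.1 ± 6.63% and 36.8 ± 5.89%. With NMD transcripts alone the direction in Ctrl vs. HC turned for Srsf2, from -0.77 to 0.18, and for Hnrnph3, from -0.57 to 0.17, at mean levels of these NMD transcripts of only 0.297 and 0.220 FPKM.

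**Figure D5:**
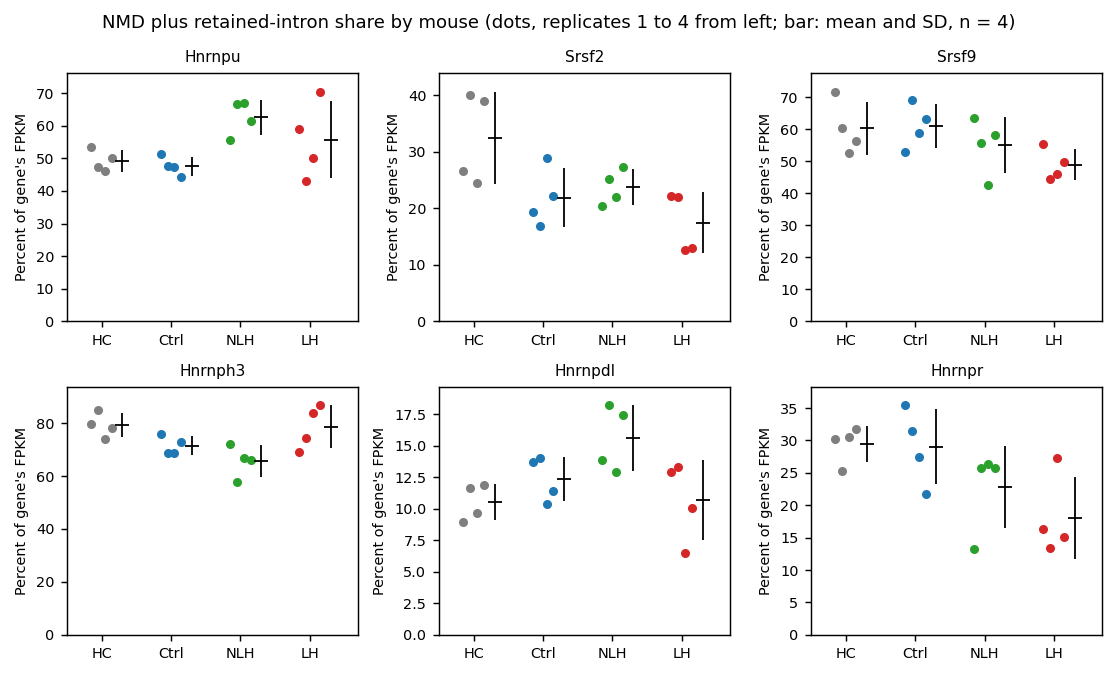
Share of NMD and retained-intron transcripts in the FPKM of 6 genes in each mouse, with the mean and SD of 4 mice per group. Hnrnpu separates NLH (55.5 to 66.9%) from Ctrl (44.1 to 51.2%), and the LH mice span 43.0 to 70.4% in it.

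Genes that work with the members were described from 5 lists, and 0 genes of any list passed in any comparison with all mice. Counted at an unadjusted p under 0.05, 25 SR-like and hnRNP-like genes with other names held 3, 4, 6 and 3 in Ctrl vs. HC, NLH vs. Ctrl, LH vs. Ctrl and LH vs. NLH, or 12%, 16%, 24% and 12%, where 2.7%, 5.59%, 11.5% and 7.54% of all genes did. In LH vs. Ctrl 5 of these 6 were higher in LH, among them Syncrip, an hnRNP of synaptic RNA granules (14.95 ± 1.076 against 10.73 ± 0.369 FPKM, limma adjusted p = 0.120), and Tardbp, which encodes TDP-43 (36.3 ± 1.504 against 28.8 ± 1.89, limma adjusted p = 0.1498). The lower one was Srrm2, a scaffold of nuclear speckles, at 14.5 ± 1.51 against 23.1 ± 1.65 (limma adjusted p = 0.128). In LH vs. NLH all 3 had lower means in LH, namely Ewsr1 (-0.45), Srrm2 (-0.32) and Ralyl (-2.08), at limma adjusted p of 0.611, 0.638 and 0.653. Without LH replicates 3 and 4 these differences were -0.41, -0.35 and 0.13, so that Ralyl changed sign. The 23 neuronal and tissue splicing regulators held 2, 6, 6 and 2 (8.70%, 26.1%, 26.1% and 8.70%). Here Elavl4, a neuronal RNA stabilizer, was nearest to the threshold, at 10.9 ± 1.63 FPKM in LH and 6.22 ± 0.446 in Ctrl (limma adjusted p = 0.0584). The 30 core spliceosome genes held 2, 6, 3 and 4 (6.67%, 20%, 10% and 13.3%), near the share of all genes in LH vs. Ctrl. The 14 SR protein kinases, phosphatases and importers held 0, 1, 1 and 1 (7.14% each for 1), and the 15 genes of the NMD machinery 1, 0, 1 and 1 (6.67% each for 1). Upf2, a core factor of that machinery, was at 7.04 ± 0.781 FPKM in LH and 5.24 ± 0.0956 in Ctrl (limma adjusted p = 0.168). In LH vs. Ctrl the medians of the lists, in the order given, were 0.05, 0.09, 0.02, 0.03 and -0.05, where that of all genes was 0.00 and that of the members 0.19. When LH replicates 3 and 4 were left out, 5.41% of all genes passed in LH vs. Ctrl at an adjusted p under 0.05, and the lists held, in the order above, 3 of 25, 5 of 23, 3 of 30, 2 of 14 and 1 of 15 such genes, with medians of 0.31, 0.29, 0.17, 0.25 and 0.21 beside 0.19 for genes other than the members. Among them were Elavl4 (0.79, limma adjusted p = 0.0201), Syncrip (0.50, limma adjusted p = 0.0237), Srrm2 (-0.70, limma adjusted p = 0.0342) and Upf2 (0.42, limma adjusted p = 0.0461), whereas Tardbp had 0.32 (limma adjusted p = 0.0610). In LH vs. NLH 0 genes of the lists passed without these mice, where 0.0383% of all genes did, and 5, 8, 4, 2 and 0 had an unadjusted p under 0.05, where 15.3% of all genes did.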

How the data were processed

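Total RNA of the hippocampus was sequenced from 4 mice per group. The deposited values are FPKM per transcript and mouse, which the authors made with StringTie (1.2.3, merged over all samples) and Cufflinks on mm10. The paper names HISAT2 as aligner and the submitters' processing notes name STAR (2.42a). Whether strand was kept is not given in the sources used here. Cufflinks divides shared reads among overlapping transcripts, so levels of single transcripts are model estimates, and without counts there is no interval for counting error. P-values of limma measure the spread between mice, pooled over all 4 groups and not only over the 2 compared. That spread was uneven. Among genes with a mean of at least 1 FPKM, the median log2 SD was 0.36 in LH and 0.14 in Ctrl. For members it was 0.20 and 0.11. At an unadjusted limma p under 0.05, Ctrl vs. HC had 493 of 18287 genes, and 1134 without LH replicates 3 and 4. Of the 30 members it had 1 and 3.

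The members and the gene lists were chosen with earlier results of these data known. Named FPKM were summed per gene, and isoform shares were taken as log2 odds with 0.1 added to both sides. Limma 3.58.1 (R 4.3.3, trend and robust moderation, tables read by its package data.table) was fitted to log2(FPKM + 0.1) with 4 group means, in genes, transcripts, shares (genes with a mean of at least 1 FPKM and at least 2 transcripts) and unproductive shares, with Benjamini-Hochberg adjustment over all features. The fits were also tested on simulated data. Exact permutation tests used the 70 splits of 4 against 4 mice. Classes, positions and sequences came from GENCODE vM21, in which all 188 members were found, 10 with another version number. Other steps used Python 3.11.15, numpy 2.4.6, pandas 2.3.3, scipy 1.17.1 and matplotlib 3.10.9.

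Named by rule were the 3 members with the smallest p in each comparison and fit (transcripts and shares with a mean of at least 1 FPKM) and the 3 highest genes of each family. Others are marked where they appear. Alternatives were a pseudocount of 0.01 or 1, a mean of at least 1 FPKM, size factors, sample quality weights, replicate numbers as a block, only the 2 groups compared, other thresholds, the study's equal-variance test on unlogged FPKM, NMD transcripts alone, and leaving out each mouse or both LH replicates 3 and 4. Locus sums were added after the data were seen.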

Additional observations from a re-analysis of the deposited data

Results flagged for a closer look

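Of 168 groups of 4 mice behind the named values, 10 had 1 mouse far from the other 3, where chance gives about 1 in 20. In Ctrl replicate 4, Srsf7 was at 7.66 FPKM (others 6.34 to 6.50) and Srsf9 at 1.80 FPKM (others 3.13 to 3.19). Srsf5 transcript ENSMUST00000094693.10 was at 7.40 FPKM in HC replicate 3 (others 5.03 to 5.37). In NLH replicate 1, Srsf1 transcript ENSMUST00000139129.8 was at 11.7 FPKM (others 5.85 to 6.21) and the unproductive share of Hnrnpr at 13.3% (others 25.7 to 26.3%).

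Shares of single transcripts stood apart for Srsf10 ENSMUST00000102544.8 in Ctrl replicate 3 (25.6%, others 19.4 to 20.1%), for Hnrnpdl ENSMUST00000128187.7 in NLH replicate 4 (32.6%, others 26.6 to 27.3%) and for Hnrnpa2b1 ENSMUST00000203220.2 in NLH replicate 3 (55.9%, others 42.0 to 43.0%). The retained-intron transcript ENSMUST00000203655.1 of Hnrnpa2b1 made up 22.0% in LH replicate 2 (others 0.287 to 3.63%). The unproductive share of Hnrnpm was 28.1% in HC replicate 4 (others 38.7 to 40.5%).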

How the results depend on the processing

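Counts of members that passed are given in the order Ctrl vs. HC, NLH vs. Ctrl, LH vs. Ctrl and LH vs. NLH where 4 are listed. At an unadjusted p under 0.05 they were 1, 4, 6 and 4 for gene sums, 13, 22, 22 and 25 for transcripts, 10, 19, 18 and 15 for isoform shares and 1, 1, 1 and 2 for unproductive shares. The study's test on unlogged FPKM gave 4, 6, 6 and 3 gene sums (all genes 8.5%, 9.58%, 8.03% and 3.5%), 22, 25, 20 and 13 transcripts (all 6.78%, 7.32%, 7.82% and 4.64%), 25, 23, 18 and 13 isoform shares (all 5.75%, 7.11%, 7.85% and 5.49%) and 2, 3, 2 and 1 unproductive shares (all 6.58%, 8.3%, 10% and 5.72%).

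For gene sums in LH vs. Ctrl, where no member passed with all mice, 3 passed with size factors, with sample quality weights and without LH replicates 3 and 4. Sample quality weights also called 1 in NLH vs. Ctrl, Hnrnpa1 (0.41, limma adjusted p = 0.0477), where 0.476% of all genes passed. With size factors the median of members in LH vs. NLH was 0.14 in place of 0.03, and that of the other genes 0.03 in place of -0.06. Transcripts in LH vs. Ctrl numbered 1 with a mean of at least 1 FPKM (all transcripts 0.292%), 1 with only the 2 groups compared (0.0412%), 1 without LH replicates 3 and 4 (0.413%) and 2 at an adjusted p under 0.1 (0.16%). The Hnrnpk fragment in NLH vs. Ctrl was lost, with 0 calls, at a pseudocount of 0.01, with a mean of at least 1 FPKM (which leaves it out) and with the replicate block. Sample quality weights gave 3 transcripts in NLH vs. Ctrl (all transcripts 0.111%) and 0 in LH vs. NLH (0.0125%), where a mean of at least 1 FPKM also gave 0. Its share in NLH vs. Ctrl was lost, with 0 calls, at a pseudocount of 0.01 or 1, with a mean of at least 1 FPKM, with the replicate block and without LH replicates 3 and 4. In LH vs. NLH it was lost, with 0 calls, at a pseudocount of 1, with a mean of at least 1 FPKM and with sample quality weights. It was also lost without LH replicates 3 and 4 (limma adjusted p = 0.0785), where 1 share passed in LH vs. NLH (all shares 0.0489%) and 1 in LH vs. Ctrl (0.02%), each time that of the Hnrnpl transcript.

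With each mouse left out in turn, gene sums in LH vs. Ctrl gave 0 to 1 (Hnrnpa1 without LH replicate 4, all genes 1.04%). Transcripts gave 0 to 1 in NLH vs. Ctrl and in LH vs. Ctrl and 0 to 5 in LH vs. NLH, with 5 without NLH replicate 1, where 0.302% of all transcripts passed. Isoform shares gave 0 to 1 in NLH vs. Ctrl and in LH vs. Ctrl and 0 to 2 in LH vs. NLH, with 2 without LH replicate 2 (all shares 0.26%).

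With NMD transcripts alone in place of NMD and retained introns, the direction turned for Srsf2 (0.18) and Hnrnph3 (0.17) in Ctrl vs. HC, Srsf11 (-0.49) in NLH vs. Ctrl and Hnrnpr (0.14) in LH vs. Ctrl. The Hnrnpr value says nothing of an NMD share: its NMD transcript was near 0 in all Ctrl and LH mice, so that with 0.1 added the value is the gene-sum difference of -0.14 with its sign turned. For the others the cause was not tested. Mice with the same number did not deviate together: the deviations from the group means had a median correlation of -0.02 in 24 same-numbered pairs, against 0.00 in the others, so the replicate block pairs only numbers. Of the named values under all alternatives, 1232 kept direction and side of the threshold, 48 passed only in the alternative, 35 lost the threshold, all of them the Hnrnpk fragment, and 4 turned, the Hnrnpr value among them.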
